A study of Homo sapiens with 6 samples.

Results

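Cytosolic ribosomal proteins are the protein components of the ribosomes that translate nuclear mRNAs. The genes described here were chosen by symbol alone: RPL or RPS followed by digits and an optional ending of A, X, L or AL, together with RPSA, RPLP0, RPLP1 and RPLP2, with the RPS6K kinases and pseudogenes left out. The rule took 75 of 24551 gene symbols, 46 of the large subunit and 29 of the small subunit, and used no measured value. Of these, 71 had a mean of at least 1 FPKM (mapped fragments scaled to transcript length and to library size) over the 6 libraries and were tested among 11865 genes. Of the other 4, RPS18, RPL3L and RPL10L are described by their values alone.

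A ribosome joins a large and a small subunit, each built from ribosomal RNA and a set of proteins present in 1 copy apiece, except for the acidic stalk proteins RPLP1 and RPLP2, which bind to RPLP0 in more than 1 copy. The mRNAs of these proteins are among the most abundant of growing cells, and most begin with a run of pyrimidines, the 5′ TOP motif, through which mTOR and LARP1 control their translation. Several core proteins have a paralogue expressed in fewer tissues, such as RPL39L, known from testis, and RPL3L, known from striated muscle. Ribosomal proteins that are not built into ribosomes, RPL5 and RPL11 above all, can bind MDM2 and stabilize p53.

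RNA-Seq was used in the study to compare the gene expression affected by *SPOP*, the substrate-binding subunit of a CUL3 ubiquitin ligase, between a prostate cancer (PCa) line and a clear cell renal carcinoma (CCRC) line. DU145 (PCa, prostate carcinoma) and 769-P (CCRC, renal cell adenocarcinoma) each gave 3 libraries of polyadenylated RNA: a control labelled NC, an *SPOP* siRNA 1 and an *SPOP* siRNA 2. The labels give no time after transfection and 1 library for each condition, so a difference from the control rested on 1 control library a line. The p-values measured only the spread between these libraries, which may be technical. For knockdown that spread lay between siRNA 1 and siRNA 2 of each line, so it also holds any difference between these siRNAs. For the lines, or an siRNA over both lines, it was what the terms for line and siRNA left over. Both lines are established cultures, and they differ in tissue and in the medium used by the study. These and any other difference between the lines cannot be told apart here.

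*SPOP* was at 16.1, 2.77 and 2.96 FPKM in the control, siRNA 1 and siRNA 2 libraries of DU145 and at 11.6, 1.53 and 1.39 FPKM in those of 769-P, which left 12.04 to 18.4% of the control. Depth is unknown in FPKM, and relative depth read from the lowest values ran from 0.683 to 1.41 times that of the 769-P control. The DU145 control listed 287 of 366 olfactory receptor genes above 0 and the siRNA 2 library of 769-P 237 of them, while the others listed 3 to 5. Their mean was 0.345 FPKM in the DU145 control, 0.227 FPKM in 769-P siRNA 2 and 0.0052 to 0.0055 FPKM in the others. Of the renal markers, PAX8 was at 125, 106 and 120.3 FPKM in 769-P and 1.10, 1.47 and 1.40 FPKM in DU145, and CA9 was listed at 0 in 769-P. KRT19 marked DU145 with 446, 384 and 462 FPKM against 2.60, 0 and 3.56 FPKM, while KLK3 and HOXB13 were at or near 0 in both lines. The 7 renal markers summed to 21.8 to 30.9 FPKM in DU145 and 255 to 273 FPKM in 769-P, the 9 prostate and glandular markers to 1255 to 1591 and 463 to 574 FPKM. Of the 6 listed markers of leukocytes, endothelium, fibroblasts and muscle, PTPRC, CD3E, PECAM1, VWF and DES were at or near 0 and COL1A1 reached 9.68 FPKM.

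Ribosomal protein genes were among the most abundant mRNAs of both lines. Of the 100 genes highest in FPKM, 52 were ribosomal protein genes. The median of the 71 tested genes was 789.8 FPKM, against 9.65 FPKM over all genes tested. A mean of at least 500 FPKM was reached by 54 of them and at least 1000 FPKM by 20, and every one of the 71 was at 3.001 FPKM or more in every library, so none of them passed the filter through 1 line only. FPKM are relative within a library, so a change in the total mRNA of a cell does not show in them. Each library pools many cells, so fewer cells with an mRNA and less of it in each cell cannot be told apart. Many of these genes have near-identical processed pseudogenes or a close paralogue, and how reads that match several places were shared is not given in the sources used here, so the level of a single gene is uncertain.

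The 4 most abundant were RPS2, RPL41, RPLP1 and RPS27, with means of 2388, 2292, 2231 and 2062 FPKM. RPS2, which lies at the mRNA entrance of the small subunit, was at 2289, 1966 and 2606 FPKM in the DU145 control, siRNA 1 and siRNA 2 libraries and at 2621, 2386 and 2458 FPKM in the 769-P libraries in the same order, which is kept below. RPL41, the smallest ribosomal protein, was at 2619, 2304 and 3116 FPKM in DU145 and 2119, 1746 and 1851 FPKM in 769-P. The siRNA 1 library was the lowest of its line in both genes, and in RPS2 the lines overlapped.

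The stalk genes also stood near the top. RPLP1 was at 2130.3, 2495 and 2650.0 FPKM in DU145 and 2034, 2177 and 1901 FPKM in 769-P, RPLP0 at 1734, 1362 and 2075 and 1739, 1659.8 and 1578 FPKM, and RPLP2 at 1051, 1014 and 1171 and 1297, 1217 and 1171 FPKM. All 3 overlapped between the lines. RPSA, the small subunit protein that also occurs as a laminin receptor, was at 725, 745 and 941 FPKM in DU145 and 625, 708 and 581 FPKM in 769-P.

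At the other end, 5 of the 71 genes were under 100 FPKM on average. Lowest were the paralogues RPL39L (15.9 FPKM) and RPS27L (30.7 FPKM), followed by RPL22 (76.1 FPKM), RPL27A (76.5 FPKM) and RPS23 (90.7 FPKM). RPS18, which every ribosome carries, was listed at 0 in all libraries. It stood in 6 rows, and the part of the repeated rows in these zeros was not tested. RPL3L was at 0.264, 0.447 and 0 FPKM in DU145 and 0, 0 and 0.110 FPKM in 769-P. RPL10L, a retrogene known from testis, was at 0.820 FPKM in the DU145 control, 0.458 FPKM in 769-P siRNA 2 and 0 in the other 4 libraries, and those are the 2 libraries with olfactory receptor signal.

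A further 7 genes of the ribosome have no row of their own. RPL17, RPL28, RPL32, RPL36A, RPS3A, RPS10 and RPS27A share a row with a neighbouring or overlapping gene, and such rows were not counted as ribosomal protein genes. The row with RPS3A was at 219, 165 and 193 FPKM in DU145 and 661, 553 and 459 FPKM in 769-P. That with RPL17 was at 491, 388 and 505 and 1113, 905 and 875 FPKM, and that with RPS10 at 962, 944 and 1190.3 and 641, 699 and 615 FPKM. The rows with RPS3A, RPL17 and RPL28 passed limma as higher in 769-P (all genes 20.9%). The row with RPS10 passed as higher in DU145 (difference -0.66, limma adjusted p 0.00565, all genes 35.7%), and the other 3 did not pass. In either direction 56.6% of all genes tested passed.

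**Figure D1:**
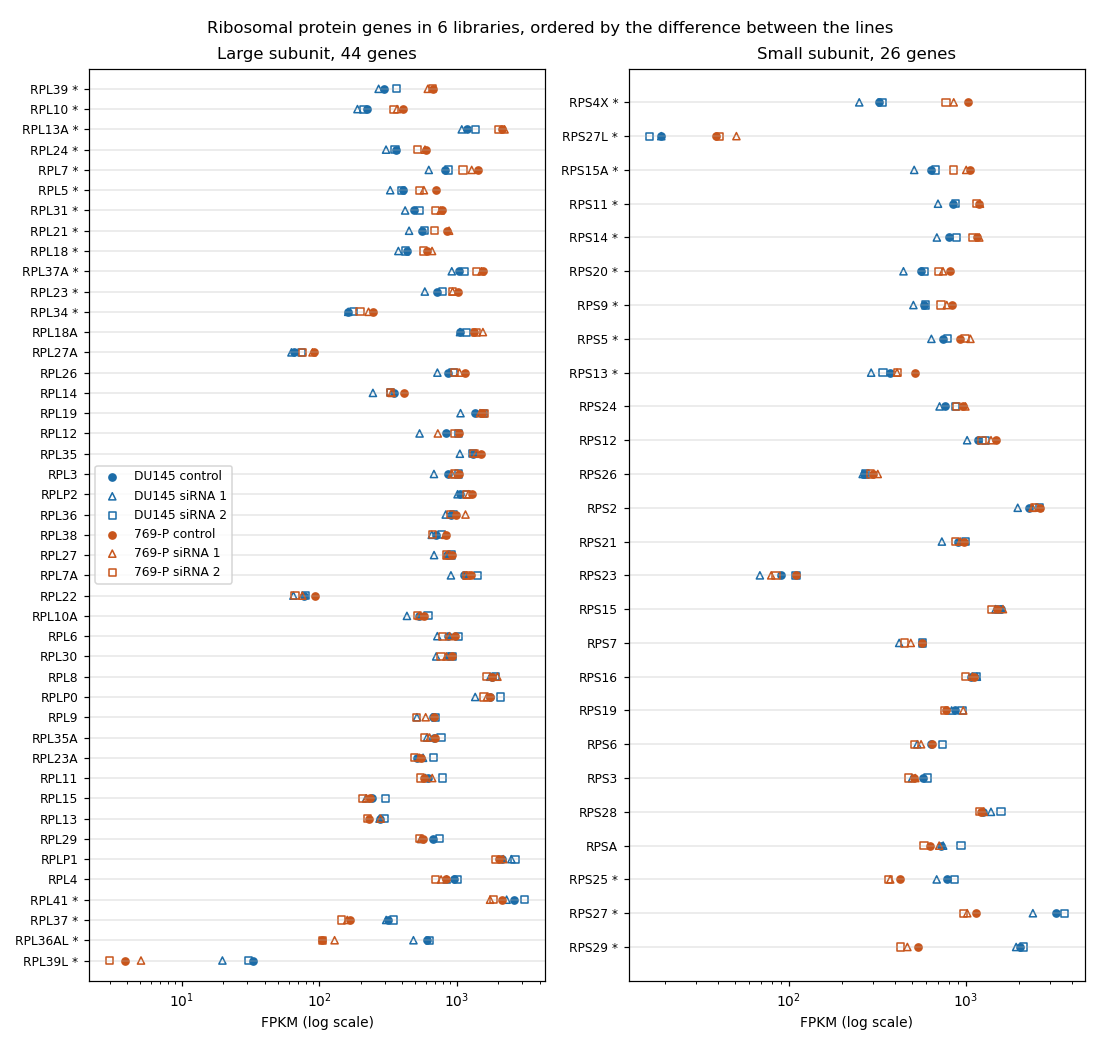
FPKM on a log axis of 70 of the 71 tested ribosomal protein genes in the 6 libraries (blue, DU145; orange, 769-P; filled circles, control; triangles, siRNA 1; squares, siRNA 2), ordered by the difference between the lines, with an asterisk where limma gave an adjusted p under 0.05. All but 5 genes have a mean of at least 100 FPKM, most with the lines close together, and RPL39L, RPL36AL, RPS29 and RPS4X show the widest separation.

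The sequence at the start of transcription was read for the genes with a RefSeq promoter window (GRCh38.p14, 250 bases before to 50 after the annotated start), which was found for 58 ribosomal protein genes, 56 of them tested. A run of C or T of at least 8 bases, on the transcribed strand and touching the 5 bases on either side of the start, was present in 44 of 56 (78.6%), against 15.1% of 8465 other tested genes with such a window. The longest run had a median of 11 bases in ribosomal protein genes and 4 bases in the others. Where a gene had several windows, the longest run was used.

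The windows from 40 bases before to 20 bases after the start are printed for RPL41, RPLP1 and RPS27, as the most abundant genes with an entry, and for 5 genes chosen after their values were seen because they differed between the lines, with the C or T run in capitals. They are RPL41 (chr12:56116593-56116652 on the + strand), RPLP1 (chr15:69452778-69452837 on the + strand), RPS27 (chr1:153990722-153990781 on the + strand), RPL39 (chrX:119791611-119791670 on the - strand), RPL36AL (chr14:49620607-49620666 on the - strand), RPS29 (chr14:49598691-49598750 on the - strand), RPS4X (chrX:72277229-72277288 on the - strand) and RPS27L (chr15:63157458-63157517 on the - strand).
RPL41: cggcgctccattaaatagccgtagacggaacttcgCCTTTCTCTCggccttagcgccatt
RPLP1: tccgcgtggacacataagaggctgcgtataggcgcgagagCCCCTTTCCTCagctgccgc
RPS27: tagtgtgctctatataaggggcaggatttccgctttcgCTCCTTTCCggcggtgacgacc
RPL39: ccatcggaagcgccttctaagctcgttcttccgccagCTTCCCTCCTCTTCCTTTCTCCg
RPL36AL: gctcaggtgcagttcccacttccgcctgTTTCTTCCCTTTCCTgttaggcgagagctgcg
RPS29: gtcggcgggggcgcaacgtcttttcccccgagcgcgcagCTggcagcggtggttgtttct
RPS4X: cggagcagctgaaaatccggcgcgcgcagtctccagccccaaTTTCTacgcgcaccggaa
RPS27L: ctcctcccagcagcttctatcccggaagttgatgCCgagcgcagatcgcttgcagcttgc
RPL39 had a run of 22 bases and RPL36AL one of 15, while in RPS29 and RPS27L it had 2 and in RPS4X 5. Genes with a long run stood on both sides of the difference between the lines, RPL39 higher in 769-P and RPL36AL and RPS27 higher in DU145. TATAAA, searched on the transcribed strand from -40 to -10, was found in 3.57% of the 56 genes and 1.93% of the others, AAGATGGC on either strand of the whole window in 10.7% and 6.80%, and CCGGAAGT on either strand in 14.3% and 10.3%. A match describes letters in the window and is no evidence of binding.

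**Figure D2:**
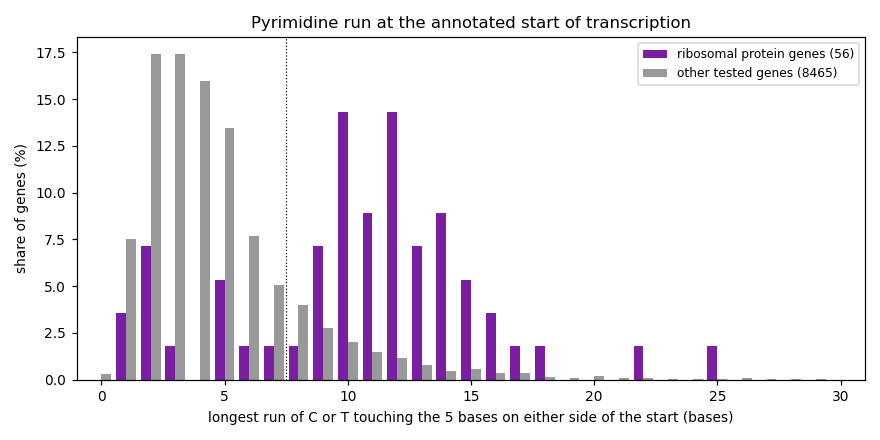
Share of genes (%) by the length in bases of the longest run of C or T at the annotated start, for 56 ribosomal protein genes (purple) and 8465 other tested genes (grey), with a dotted line below the minimum of 8 bases. Ribosomal protein genes gather at 9 to 15 bases and the other genes at 2 to 5.

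The lines kept a similar order of ribosomal protein mRNAs. Over the 71 genes the mean FPKM of the lines had a Spearman correlation of 0.84 and, on the log2 scale, a Pearson correlation of 0.87, as a description across genes of the same 6 libraries. The line difference was fitted with limma on log2(FPKM + 1), with siRNA as a second term, so that each library was set against that of the same condition in the other line. It lay within 1.5-fold for 53 of 71 genes (74.6%), against 52.5% of all genes tested, and had an SD over genes of 0.70, against 1.20.

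An adjusted p under 0.05 (limma, Benjamini-Hochberg over all genes tested) was reached by 29 of the 71 genes (40.8%), where 56.6% of all genes tested passed. Of the 29, 22 were higher in 769-P (all genes 20.9%) and 7 in DU145 (all genes 35.7%). The split was 12 and 4 in the large subunit and 10 and 3 in the small. The median difference, 769-P minus DU145, was 0.13 over the 71 genes and -0.16 over all genes tested. With each library centred on the median of all genes the split became 34 and 6, and after quantile normalization 23 and 23. Leaving out a library moved the count as well. It was 11 without either control library, with 5 higher in 769-P and 6 in DU145, so the lean to 769-P was lost. It was 17 without either siRNA 1 library (11 and 6) and 32 without either siRNA 2 library (26 and 6).

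Highest in DU145 relative to 769-P was RPL39L, the paralogue of RPL39 near the exit of the peptide tunnel (chromosome 3, 186838736 to 186898696, hg19). It was at 32.8, 19.8 and 30.7 FPKM in DU145 and 3.88, 5.06 and 3.001 FPKM in 769-P, a difference of -2.52 on the log2 scale (SE 0.23, limma adjusted p 1.94e-05). All DU145 libraries lay above all 769-P libraries. RPL39 itself (chromosome X, 118920467 to 118925593) went the other way, with 296, 270.3 and 364 FPKM in DU145 and 673, 616 and 669 FPKM in 769-P (difference 1.08, SE 0.14, limma adjusted p 0.000165). There were 9.02, 13.7 and 11.9 times as many FPKM of RPL39 as of RPL39L in DU145 and 173, 122 and 223 times in 769-P.

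RPS27 and RPS27L formed the opposite pair. RPS27, a zinc finger protein of the small subunit (chromosome 1, 153963238 to 153964631), was at 3231, 2395 and 3609 FPKM in DU145 and 1146, 1019.8 and 971 FPKM in 769-P, 2.94 times higher in DU145 by the means of 3078 ± 621 and 1045 ± 90.5 FPKM (SD, n = 3 libraries a line, siRNA libraries included; difference -1.54, SE 0.18, limma adjusted p 7.9e-05). RPS27L, a target of p53 (chromosome 15, 63418071 to 63450220), was at 19.0, 19.1 and 16.4 FPKM in DU145 and 38.6, 50.6 and 40.7 FPKM in 769-P (difference 1.20, SE 0.14, limma adjusted p 9.37e-05). The ratio of RPS27 to RPS27L was 170.0, 126 and 221 in DU145 and 29.7, 20.1 and 23.9 in 769-P, with no overlap.

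RPL36AL and RPS29 lie 19365 bases apart on chromosome 14 and both were lower in 769-P. RPL36AL, which encodes a protein nearly identical to RPL36A of the tRNA exit site (chromosome 14, 50085248 to 50087344), was at 605, 484 and 634 FPKM in DU145 and 104, 129 and 106 FPKM in 769-P, 5.08 times higher in DU145 (difference -2.33, SE 0.16, limma adjusted p 3.93e-06). RPS29, which binds zinc in the head of the small subunit (chromosome 14, 50037702 to 50065882), was at 2016, 1927 and 2128 and 538, 468 and 429 FPKM, 4.23 times higher in DU145 (difference -2.08, SE 0.15, limma adjusted p 4.95e-06). The row that holds RPL36A with HNRNPH2 was at 196, 172 and 213 FPKM in DU145 and 147, 169 and 135 FPKM in 769-P, so the ratio of RPL36AL to it was 2.81 to 3.09 in DU145 and 0.706 to 0.788 in 769-P.

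RPL37, RPS25 and RPL41 were the other 3 genes past the threshold on the DU145 side. RPL37 was at 317, 307 and 346 FPKM in DU145 and 168, 159.9 and 146 FPKM in 769-P (difference -1.03, SE 0.13). RPS25, needed by several viral internal ribosome entry sites, was at 788, 685 and 866 and 424, 374 and 368 FPKM (difference -0.998, SE 0.14). For RPL41 the difference was -0.49 (SE 0.17, limma adjusted p 0.0329), and the DU145 libraries lay above those of 769-P by a narrow margin.

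On the 769-P side RPS4X, a small subunit protein encoded on the X chromosome (chromosome X, 71475529 to 71497098), led with 322, 250.3 and 336 FPKM in DU145 and 1033, 855 and 773 FPKM in 769-P, 2.93 times higher in 769-P (difference 1.55, SE 0.16, limma adjusted p 3.71e-05). RPL10, which joins the large subunit late in its maturation (chromosome X, 153618315 to 153637504), was at 223, 189.6 and 209 and 409, 368 and 349 FPKM (difference 0.86, SE 0.13, limma adjusted p 0.000456). RPL10, RPL39 and RPS4X are the 3 tested genes on the X chromosome, and all 3 were higher in every 769-P library. Further genes higher in 769-P included RPL13A (difference 0.81), a protein also known from translational silencing by the GAIT complex, and RPL5 (0.68). Of the 9 tested proteins listed as MDM2 partners, 4 passed limma as higher in 769-P (all genes 20.9%) and 1, RPS27, as higher in DU145 (all genes 35.7%), while RPL11 differed by -0.16 (SE 0.16).

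The other protein-coding genes around these loci were read for the same difference. All 9 tested neighbours within 500000 bases of RPS29 and RPL36AL passed limma as higher in DU145, with differences from -2.69 to -1.32, and so did all 20 around RPS25 (-2.69 to -0.46), all 3 around RPL39L and 3 of 4 around RPL37. Around RPS27, 20 of 25 passed as higher in DU145 and 4 as higher in 769-P, with a median of -1.13. Of the 9 around RPL39, 3 passed as higher in 769-P, and all 9 differences (0.13 to 0.82) were smaller than that of RPL39 itself. The 4 neighbours of RPS4X lay between -0.19 and 0.57, below RPS4X. The 6 neighbours of RPS27L had a median of -0.26 and ran from -1.34 to 2.59, a range that holds RPS27L. Over whole chromosomes, the difference was above 0 for 12.7% of 332 other tested genes of chromosome 14 and 72.0% of 300 of the X chromosome. On the chromosomes of RPS27L (chromosome 15), RPS25 (chromosome 11), RPL39L (chromosome 3), RPS27 (chromosome 1) and RPL37 (chromosome 5) the shares were 23.0, 31.5, 32.7, 47.3 and 47.3%. Over all genes tested, 35.7% passed as higher in DU145 and 20.9% as higher in 769-P. Their median difference was -0.16, so more genes lay below 0 than above it. What part the surroundings have in these differences was not tested.

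**Figure D3:**
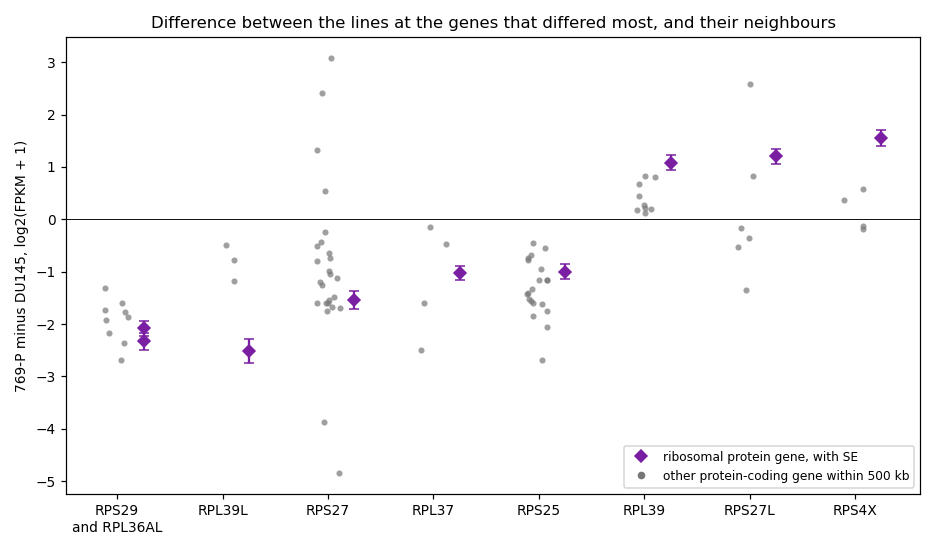
Difference between the lines (769-P minus DU145, log2 scale) of the ribosomal protein genes that differed most (purple diamonds, with SE) and of the other tested protein-coding genes within 500 kb of each (grey points). At RPS29 and RPL36AL, RPS25, RPL39L and RPL37 all neighbours lie below 0, and at RPS4X they lie on both sides of it.

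In a middle range the lines could not be told apart. RPL8 (1820.2 ± 89.7 FPKM in DU145 and 1808 ± 164 FPKM in 769-P, SD, n = 3), RPS15 (1529 ± 55.2 and 1506 ± 114 FPKM) and RPLP0 (1724 ± 357 and 1659 ± 80.5 FPKM) differed by less than the spread between libraries. The ribosomal P protein RPLP0, often used as a reference in quantitative RT-PCR, had a difference of -0.03 with an SE of 0.18. Libraries of the lines did not overlap for 28 genes higher in 769-P (39.4%, all genes 21.2%) and for 9 higher in DU145 (12.7%, all genes 35.1%). Length of the canonical transcript (295 to 7573 bases) had a Spearman correlation of 0.02 with the difference over the 71 genes.

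After *SPOP* knockdown no ribosomal protein gene passed 1.5-fold with both siRNAs in either line. The count was 0 of 71 in DU145, where 5.91% of all genes tested passed, and 0 of 71 in 769-P, where 7.32% passed. In single libraries, RPL12 and RPL39L were lower by more than 1.5-fold in DU145 siRNA 1 (all genes, either direction, 19.5%), and 0 of 71 passed in the other 3 (all genes 15.1%, 20.1% and 14.5%). With limma, 0 of 71 reached an adjusted p under 0.05 for knockdown in DU145, for knockdown in 769-P or for the difference between the lines (all genes 0.135%, 0.101% and 0.169%). At an unadjusted p under 0.05 the counts were also 0 of 71, against 6.27%, 6.97% and 2.74% of all genes. On simulated data the knockdown fit in DU145 was given 200 genes with a log2 change of 2. It recovered 198 of them where all genes had the same spread and 0 where each gene had the spread of its own siRNA libraries. The simulated 769-P libraries were made from the DU145 ones with more noise, unlike the real ones. They thus do not show what the fit could find for these genes. In the real fit the SE of the DU145 change ran from 0.20 to 0.42 over the 71 genes. A count of 0 does not show that these mRNAs were unchanged. With the lines as replicates of each siRNA, 0 of 71 passed for siRNA 1 (2 at an unadjusted p under 0.05, all genes 3.01% and 21.3%) and 0 for siRNA 2 (0 unadjusted, all genes 0.303% and 13.9%).

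The changes were small but were shared across the genes, and their direction depended on the library. In DU145, 63 of 71 genes lay below the control with siRNA 1 (all genes 42.5%) and 11 with siRNA 2 (all genes 35.5%). In 769-P, 49 of 71 lay below the control with siRNA 1 (all genes 49.3%) and 66 with siRNA 2 (all genes 56.3%). The median log2 changes with siRNA 1 and siRNA 2 were -0.23 and 0.13 in DU145 and -0.08 and -0.16 in 769-P, and over all genes tested 0.07 and 0.12 in DU145 and 0.00 and -0.06 in 769-P. In each line both siRNA libraries were set against the same control. The median of the DU145 siRNA 2 library was thus close to that of all genes.

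The spread over the ribosomal protein genes was narrow, with an SD of 0.17 and 0.12 in DU145 and 0.18 and 0.13 in 769-P, against 0.50 to 0.57 over all genes tested. Both subunits moved alike, with medians of -0.24 and 0.13 in DU145 and -0.09 and -0.16 in 769-P for the large subunit and -0.22 and 0.09 in DU145 and -0.08 and -0.17 in 769-P for the small. The siRNA libraries of a line can be set against each other without the control. DU145 siRNA 2 was above siRNA 1 for 69 of 71 genes (all genes 55.1%), by a median of 0.34 (all genes 0.05). In 769-P it was above for 10 of 71 (all genes 40.4%), with a median of -0.13 (all genes -0.07). By these medians the siRNA 1 library of DU145 stood lower than siRNA 2. In 769-P the order was reversed, and the median of all genes moved the same way. As a share of the summed FPKM the order was not reversed in 769-P (13.9% with siRNA 1 and 14.0% with siRNA 2).

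**Figure D4:**
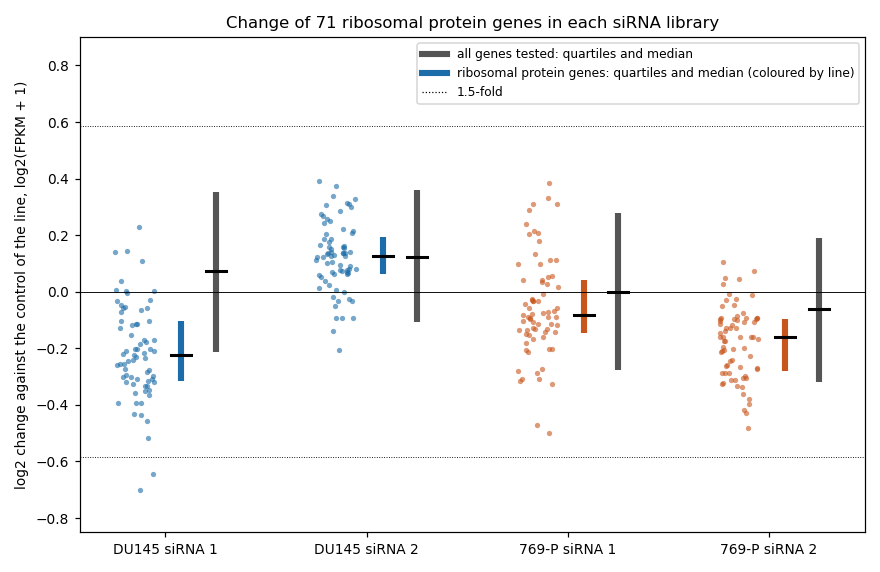
Log2 change against the control of the line, on log2(FPKM + 1), of the 71 ribosomal protein genes in each siRNA library (points), with the quartiles (thick bars) and median (black line) of these genes and of all genes tested (grey). Dotted lines mark 1.5-fold, which 2 points of DU145 siRNA 1 pass, and the points of that library lie mostly below 0 while those of DU145 siRNA 2 lie mostly above.

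As a share of the summed FPKM of a library, ribosomal protein genes held 14.8, 12.6 and 14.6% in the DU145 control, siRNA 1 and siRNA 2 libraries and 15.0, 13.9 and 14.0% in those of 769-P. Large subunit genes held 7.36 to 9.20% and small subunit genes 5.25 to 6.16% over the 6 libraries. In DU145 the siRNA 2 library lay close to the control with siRNA 1 below both, and in 769-P both siRNA libraries lay below the control.

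RPL12, which lies at the base of the stalk, had the smallest p among these genes for siRNA 1. It was at 839, 536 and 1023 FPKM in DU145 and 1030.3, 728 and 963 FPKM in 769-P, the lowest value of each line being that of siRNA 1. The change with siRNA 1 over both lines was -0.57 (SE 0.19, limma adjusted p 0.133), and that with siRNA 2 0.09 (SE 0.19, limma adjusted p 0.875). Quantile normalization moved the siRNA 1 change past the threshold.

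The largest mean decreases in DU145 were those of RPL39L, RPL14 and RPS13. RPL39L changed by -0.70 and -0.09 with siRNA 1 and siRNA 2, RPL14 by -0.52 and -0.09, and RPS13 by -0.36 and -0.14. RPL14 and RPS13 were also below the control in 769-P, by -0.31 and -0.34 for RPL14 (352, 246 and 330.0 FPKM in DU145, 416, 336 and 329 FPKM in 769-P) and by -0.33 and -0.31 for RPS13 (375, 292 and 341 and 514, 409 and 413 FPKM). None of these passed a test.

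The largest mean increases in DU145 were those of the stalk gene RPLP1 (0.23 and 0.31), of RPL23A near the tunnel exit (0.15 and 0.39; 514, 569 and 675 FPKM) and of RPS28 (0.14 and 0.33; 1259, 1389 and 1580.3 FPKM). In 769-P the same genes changed by 0.10 and -0.10 for RPLP1, -0.04 and -0.17 for RPL23A and 0.04 and -0.03 for RPS28. The smallest adjusted p over these genes for knockdown in DU145 was 0.866 (limma).

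In 769-P the largest mean decreases were those of RPS23, RPL22 and RPS4X. RPS23, a protein of the decoding centre, was at 111, 79.6 and 84.8 FPKM in 769-P and 90.6, 68.7 and 109.9 FPKM in DU145, with changes of -0.47 and -0.38 in 769-P. RPL22, known for binding the EBER1 RNA, changed by -0.31 and -0.48 (93.5, 75.4 and 66.7 FPKM), and RPS4X by -0.27 and -0.42. The largest mean increases were those of the paralogues RPS27L (0.38 and 0.07) and RPL36AL (0.31 and 0.03) and of RPS19 (0.33 and -0.01; 768, 968 and 762 FPKM), which is mutated in Diamond-Blackfan anaemia. The smallest adjusted p over these genes for knockdown in 769-P was 0.733 (limma).

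The 9 tested MDM2 partners, with RPL5 and RPL11 among them, had median changes of -0.26 and 0.12 in DU145 and -0.13 and -0.13 in 769-P. RPL5 was at 407, 328 and 397 FPKM in DU145 and 704, 577 and 534 FPKM in 769-P, highest in the control of each line, and RPL11 at 621, 591 and 785 and 573, 663 and 544 FPKM. The 3 stalk genes had medians of -0.05 and 0.26 in DU145 and -0.07 and -0.14 in 769-P. None of the 12 genes of these lists passed limma for either siRNA.

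Other genes of protein synthesis were set beside the ribosomal protein genes by lists. Of 19 listed translation factors with 5′ TOP mRNAs, 14 had a row of their own and were tested. Their medians were -0.24 and 0.06 in DU145 and -0.14 and -0.28 in 769-P, below 0 in each library but DU145 siRNA 2 as for the ribosomal protein genes, and 0 of 14 passed limma for either siRNA (smallest adjusted p 0.202 for siRNA 1 and 0.183 for siRNA 2). EEF1A1, the elongation factor that brings tRNA to the ribosome, was at 1266, 1072 and 1315 FPKM in DU145 and 2239, 1892 and 1742 FPKM in 769-P. In 769-P, EIF3E of the initiation factor eIF3 passed 1.5-fold downwards with both siRNAs (222, 145 and 139 FPKM). EIF3F of the same complex passed upwards (103, 156 and 155 FPKM). In either direction 7.32% of all genes tested and 0 of 71 ribosomal protein genes passed.

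The 60 tested genes of rRNA processing and ribosome assembly had medians of -0.15 and 0.05 in DU145 and -0.16 and -0.30 in 769-P, and 1 rose and 3 fell with siRNA 1 at an adjusted p under 0.05 (limma; all genes, either direction, 3.01%). NPM1, a nucleolar chaperone of ribosomal proteins, was at 432, 159 and 417 FPKM in DU145 and 1116, 329.6 and 739 FPKM in 769-P, a change with siRNA 1 of -1.60 (SE 0.18, limma adjusted p 0.00717). The siRNA 1 library was the lowest of its line in both. RRN3, which recruits RNA polymerase I, fell with siRNA 1 as well (13.9, 5.87 and 12.4 and 10.6, 3.69 and 7.98 FPKM; -1.21, limma adjusted p 0.0199), and so did LTV1, an assembly factor of the small subunit (14.9, 7.24 and 16.8 and 16.2, 6.28 and 12.8 FPKM; -1.10, limma adjusted p 0.0284). NOLC1, a chaperone of small nucleolar ribonucleoproteins, rose with both siRNAs, from 33.9 to 54.9 and 79.3 FPKM in DU145 and from 35.0 to 66.5 and 71.8 FPKM in 769-P (limma adjusted p 0.0434 for siRNA 1 and 0.0422 for siRNA 2).

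The 7 chaperones of ribosomal proteins, NPM1 among them, had medians of -0.14 and 0.00 in DU145 and -0.06 and -0.22 in 769-P. NPM1 was the only one of them to pass limma for an siRNA, which was siRNA 1. The 20 tested genes of translational control, which include MTOR, LARP1 and the S6 kinases, had medians of 0.11 and 0.16 in DU145 and 0.04 and -0.16 in 769-P, and 0 passed for either siRNA (smallest limma adjusted p 0.12 for siRNA 1 and 0.152 for siRNA 2). LARP1 was at 36.5, 38.8 and 40.6 FPKM in DU145 and 47.9, 45.2 and 37.7 FPKM in 769-P, and MTOR at 12.9, 11.6 and 15.2 and 6.30, 6.62 and 6.08 FPKM. The 73 mitochondrial ribosomal protein genes had medians of -0.05 and 0.15 in DU145 and -0.11 and -0.07 in 769-P. Over 108 other genes that averaged 300 FPKM or more the medians were -0.02 and 0.15 in DU145 and 0.10 and -0.05 in 769-P, with SDs of 0.30 to 0.49.

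**Figure D5:**
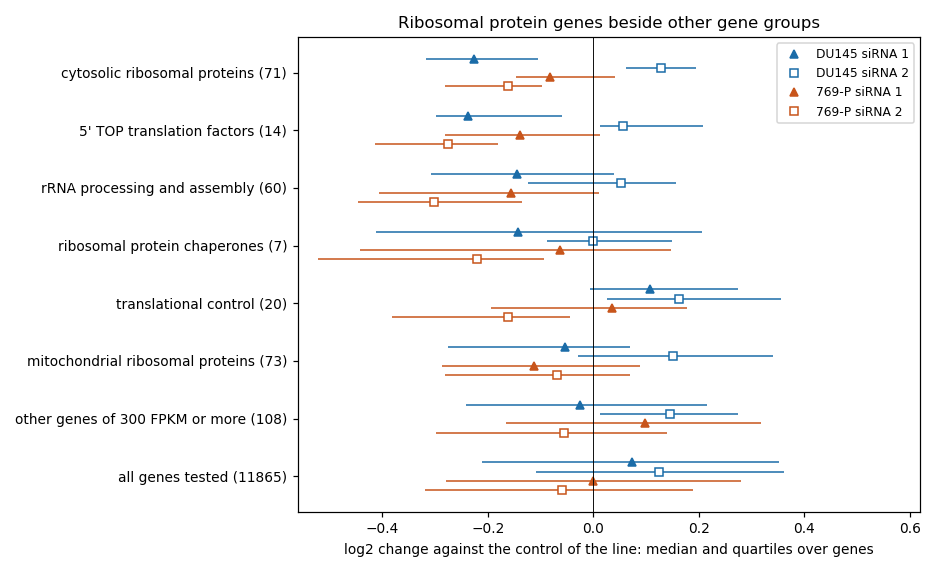
Median (symbols) and quartiles (lines) over genes of the log2 change against the control of the line, for the ribosomal protein genes and 7 other groups, with the number of tested genes in brackets (triangles, siRNA 1; open squares, siRNA 2; blue, DU145; orange, 769-P). The ribosomal protein genes and the 5′ TOP translation factors have their medians above 0 in DU145 siRNA 2 and below it in the other 3 libraries, and so have the groups of rRNA processing and assembly, ribosomal protein chaperones (at 0.00 in DU145 siRNA 2) and mitochondrial ribosomal proteins.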

How the data were processed

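Total RNA of DU145 and 769-P cells was used for poly(A) selection, and the study's methods describe 100-base paired-end Illumina reads, mapped by the authors to hg19 with TopHat2 with at most 2 mismatches. Per the labels, FastQC and cutadapt were also used. The authors deposited 1 FPKM value per gene and library, calculated with Cufflinks, and the annotation and tool versions are not given in the sources used here. The methods state 2 biological replicates per sample, while the labels give 1 library each. Rows with the same symbol were summed. FPKM are not counts, so no count test was used, no counting interval was given and precision rests on the number of libraries alone.

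Values were analysed as log2(FPKM + 1), so fold changes of low genes are understated, for genes that averaged 1 FPKM or more. Each siRNA library was divided by its control. limma 3.58.1 in R 4.3.3 (eBayes with a trend, Benjamini-Hochberg over all genes tested) was fitted once with 4 groups, line by control or siSPOP, and once with line and siRNA as terms, and was tested on simulated data. Python 3.11.15, pandas 2.3.3 and numpy 2.4.6 were used for all other steps. Gene positions and transcript lengths came from GENCODE for GRCh37 and promoter sequences from RefSeq.

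The ribosomal protein genes and the lists were chosen with earlier results of these data known. The genes named are the 4 with the highest and the 4 with the lowest mean, the latter being the 4 that failed the filter, the 3 largest and 3 smallest mean changes in each line, the 4 largest and 4 smallest differences between the lines, up to 8 genes past limma in a contrast, the paralogues with their core genes, and the stalk genes and RPSA. RPL22, RPL27A, RPL5, RPL11, RPL8, RPS15, RPL13A and RPS25 were named as further examples after their values were seen. Some genes are counted but are not reported here by name or plotted singly. Alternatives were a pseudocount of 0.1, no filter or a minimum of 5 FPKM, 2-fold, quantile normalization, centring on the median, no trend, the highest of repeated rows, small RNA genes left out of the sum, a replicate block, and each library left out in turn.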

Additional observations from a re-analysis of the deposited data

Results flagged for a closer look

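For 3 ribosomal protein genes both *SPOP* siRNA libraries were above the control in DU145 and below it in 769-P. RPL23A was at 514, 569 and 675 FPKM in the DU145 control, siRNA 1 and siRNA 2 libraries, with log2 changes of 0.15 and 0.39, and at 553, 537 and 490.4 FPKM in 769-P, with changes of -0.04 and -0.17. Its mean change was 0.38 higher in DU145. RPL34 was at 162, 162 and 178 FPKM in the DU145 control, siRNA 1 and siRNA 2 libraries, with log2 changes of 0.00 and 0.13, and at 244, 228 and 198 FPKM in 769-P, with changes of -0.10 and -0.30. Its mean change was 0.27 higher in DU145. For RPS16, a small subunit protein, values were 1073, 1156 and 1142 FPKM in DU145 (changes of 0.11 and 0.09) and 1111, 1090.3 and 995 FPKM in 769-P (changes of -0.03 and -0.16), and its mean change was 0.19 higher in DU145. They were singled out by direction alone, and several of these changes are close to 0. The share of all genes tested with this pattern was not counted, so the 3 genes are no result about ribosomal protein genes. Median changes over all genes tested were 0.07 and 0.12 in DU145 and 0.00 and -0.06 in 769-P. In limma's test of the difference between the lines none of the 3 passed, with an adjusted p of 0.999 for each and unadjusted p-values of 0.272 for RPL23A, 0.401 for RPL34 and 0.53 for RPS16. In each line both siRNA libraries share 1 control, so that library alone can give both changes 1 sign.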

How the results depend on the processing

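The differences between the lines named above for RPL39L, RPL36AL, RPS29, RPL37, RPL10, RPL39, RPS27L and RPS4X kept their direction and an adjusted p under 0.05 (limma) in all 13 fits. That of RPS27 did so in 12, with an adjusted p of 0.121 without a filter. Leaving out either library of a condition gave the same difference, so the 13 fits are not separate checks. Genes were also named partly by this difference. The number of the 71 genes past limma for the line, 29, became 9 without a filter (4 higher in 769-P and 5 in DU145), where the 75 genes were tested among all symbols, and 46 after quantile normalization. It lay between 11 and 32 when each library was left out in turn, 11 without the DU145 control or the 769-P control and 17 without either siRNA 1 library. Knockdown counts at 1.5-fold, 0 as given above, became 1 in DU145 without a filter, the gene being RPL10L, and lay between 0 and 2 in DU145 with 1 siRNA left out, the 2 being RPL12 and RPL39L with siRNA 1 alone. For siRNA 1 over both lines quantile normalization gave 1 gene, RPL12 (-0.49, SE 0.08, limma adjusted p 0.0433). The other counts for knockdown and for each siRNA stayed at 0 under every alternative run. The median change in 769-P siRNA 2 became -0.10 when centred on all genes, and that in DU145 siRNA 2 0.00. The share of summed FPKM without small RNA genes was 16.6, 15.4 and 15.5% in the 769-P libraries. The cause of these shifts was not tested.

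The siRNA numbers are shared by the lines but mark no common batch in the labels. With the number as a replicate block the counts past limma stayed at 0 for both lines and for the difference between them. With 2 pairs, the siRNA 2 minus siRNA 1 differences of the lines had a correlation of 0.27 over all genes tested and 0.46 over the ribosomal protein genes. The knockdown tests rest on 1 control library a line, and a count of 0 does not show that these mRNAs were equal.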

Other observations

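Ribosomal proteins and paralogues whose symbols lie outside the rule are described by their values. RPL22L1, the paralogue of RPL22, was at 11.7, 5.80 and 11.4 FPKM in DU145 and 36.7, 16.4 and 24.4 FPKM in 769-P (control, siRNA 1, siRNA 2), with the siRNA 1 library the lowest of each line. It fell with siRNA 1 by 1.01 on the log2 scale over both lines (SE 0.19, limma adjusted p 0.0349), while RPL22 changed by -0.28 (SE 0.18, limma adjusted p 0.424). RPL26L1, the paralogue of RPL26, was at 34.6, 44.5 and 69.5 FPKM in DU145 and 30.3, 74.9 and 58.2 FPKM in 769-P, above the control in all 4 siRNA libraries and past 1.5-fold with both siRNAs in 769-P, with a limma adjusted p of 0.0985 for siRNA 1 and 0.141 for siRNA 2. RPL26 was at 863, 723 and 940.0 and 1150.4, 1047 and 959.8 FPKM. RPL7L1 was at 54.5, 35.5 and 58.1 FPKM in DU145 and 39.3, 26.9 and 31.4 FPKM in 769-P, lowest with siRNA 1 in each line, with a limma adjusted p of 0.118. FAU, which encodes a ribosomal protein fused to a ubiquitin-like protein, was at 784, 717 and 796 FPKM in DU145 and 430.2, 504 and 501 FPKM in 769-P. It was higher in DU145 and did not pass limma for either siRNA.

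Between the start and end of 26 of the ribosomal protein genes, on the same strand, lie 52 annotated small RNA genes. Of these, 47 had a row and 31 were listed at 0 in all libraries. SNORA70, within RPL10, was at 26.2, 42.0 and 45.3 FPKM in DU145 and 85.8, 0 and 31.3 FPKM in 769-P. Between 2 and 6 of the small RNA genes were above 0 in any 1 library. Host genes and the other ribosomal protein genes had median changes of -0.22 and -0.23 in DU145 siRNA 1 and 0.13 and 0.13 in DU145 siRNA 2. In 769-P these were -0.10 and -0.07 with siRNA 1 and -0.16 and -0.16 with siRNA 2.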
